A study of Amphiprion ocellaris with 30 samples.

Results

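Thyroid hormone treatment was compared with solvent in larvae of the clownfish Amphiprion ocellaris, using the 10 libraries labelled T3 and the 10 labelled DMSO out of 30 libraries in the series. The other 10 came from larvae given SR9243, which the series title describes as an LXR antagonist, at 1e-07 M. The libraries were chosen by their treatment labels alone. Each was made from entire wild-type larvae, held at 27°C in beakers filled with treated sea water, and carries the label of 5 days after treatment. T3 libraries came from larvae given triiodothyronine at 1e-07 M, and control libraries from larvae given dimethyl sulfoxide (DMSO) at 0.0001%. The labels do not say whether the T3 larvae also received DMSO, how old the larvae were, whether a library is 1 larva, or which larvae shared a beaker. The titles of the T3 libraries carry a further tag, IOP, which no label explains, so the values below are those of larvae labelled T3-IOP. If the tag marks a second compound given with T3, the effects of T3 and of that compound cannot be told apart. The words "with T3" below stand for these libraries and not for T3 alone. P-values set the difference between groups against the spread between libraries, which may in part be technical. They treat the libraries as independent. If the larvae of a treatment shared a beaker, treatment and beaker cannot be told apart.

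T3 is the active form of thyroid hormone. It enters the nucleus and binds thyroid hormone receptors, transcription factors that sit on DNA together with retinoid X receptors and that repress or activate their target genes depending on whether the hormone is bound. In bony fish and amphibians a rise of thyroid hormone drives metamorphosis, in which larval tissues of muscle, gut, skin, eye and skeleton are replaced by or remodelled into those of the juvenile. In clownfish this is the period in which the white bars appear. The comparison asks which genes differed in whole larvae at the labelled time of 5 days after treatment.

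Expression values are the authors' variance-stabilised counts. They follow log2 units at high levels, where a difference of 1 is close to a doubling, and are compressed at low levels, where the same difference stands for a larger ratio. Differences are T3 minus DMSO on this scale, with the standard error (SE) of the fitted difference. A gene is called changed when its adjusted p in limma is below 0.05. Of 22816 genes in the table, 22360 were above its lowest value of 2.88 in at least 10 of the 20 libraries and were tested. A gene at this lowest value in a library is described below as listed at 0. The deposited table gives Ensembl gene IDs without names, and 0 of them could be paired with a symbol here. Deiodinases, receptors, pigment genes and other gene families are therefore not reported by name, and the label of entire larvae could not be checked against tissue markers. In whole larvae, fewer cells of a type and less RNA per cell cannot be told apart.

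Some libraries stood apart within their own group. DMSO library 7 lay farthest from the mean of its fellow libraries, at a root-mean-square distance of 0.722 per gene against 0.29 to 0.437 for the other DMSO libraries. The T3 libraries lay at 0.281 to 0.362, with library 2 the farthest. The mean distance was 0.389 in DMSO and 0.302 in T3 (permutation test, adjusted p = 0.00604). Averaged over the DMSO libraries other than 4 and 7 it was 0.342 (permutation test, adjusted p = 0.0224). Those distances were still taken to means that include libraries 4 and 7, so they are not the spread without these libraries. Every library also enters the reference means of the others in its group. The distances are therefore not independent, as the permutation tests take them to be, so these p-values are only a rough guide. T3 libraries 1 to 5 also differed from T3 libraries 6 to 10 on a principal component described further on. Counts are therefore given with and without these libraries.

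A large part of the tested genes differed between larvae labelled T3-IOP and DMSO. Between T3 and DMSO libraries 10927 genes were called changed, which is 48.9% of those tested. Of these, 5361 genes (24%) were higher and 5566 (24.9%) were lower with T3. Most changes were small, and called differences had a median size of 0.51. Without DMSO libraries 4 and 7 the count was 11602. With T3 libraries 6 to 10 alone it was 8407, and with T3 libraries 1 to 5 alone 8789, each against all 10 DMSO libraries.

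Higher and lower genes were near balance in number with the authors' scaling. The balance was lost at equal library medians, with 4639 genes higher and 6659 lower, and after quantile normalisation, with 4888 and 6241. They were not balanced in size. A rise of at least 1 was found for 1114 genes (4.98% of those tested) and a fall of at least 1 for 486 (2.17%). At a size of at least 2 there were 198 risen genes (0.886%) and 93 fallen ones (0.416%), and at a size of at least 4 there were 27 (0.121%) and 14 (0.0626%). The ratio of risen to fallen genes at a size of 1 was 2.29. It was 1.78 with library medians set equal and 2.01 after quantile normalisation, so the excess of large rises kept its direction under both scalings. It was 2.29 without DMSO libraries 4 and 7, and 2.37 and 2.15 with T3 libraries 6 to 10 and 1 to 5 alone.

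**Figure D1:**
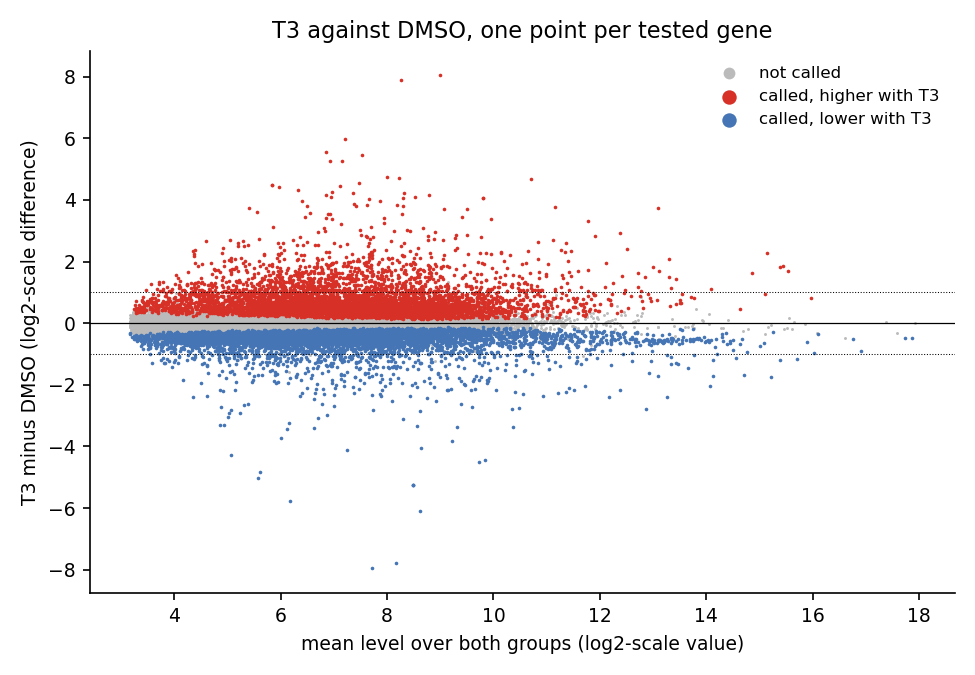
Difference between T3 and DMSO (vertical axis, log2-scale values) against the mean level over both groups (horizontal axis), with 1 point for each of the 22360 tested genes. Called genes are red where higher and blue where lower, the dotted lines mark differences of 1 and -1, and the 1114 red points above the upper line outnumber the 486 blue points below the lower one.

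The 4 genes named here are the 2 in each direction with the largest moderated limma statistic among called genes of size 1 or more with no overlap between T3 and DMSO libraries. Among the 22360 tested genes, 834 risen and 301 fallen ones were of this kind, out of 1114 and 486 called at size 1 or more.

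ENSAOCG00000000554 was near the bottom of the scale in DMSO larvae and among the more abundant genes with T3. Its DMSO levels ran from 3.41 through a median of 4.26 to 5.72, and its T3 levels from 11.15 through 12.41 to 13.01. The lowest T3 library lay 5.42 above the highest DMSO library. Its mean went from 4.32 ± 0.69 (SD, n = 10) to 12.2 ± 0.62, a rise of 7.89 (SE 0.27, limma adjusted p = 2.4e-15). In rank among the tested genes it moved from 20185 in DMSO to 260 with T3.

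ENSAOCG00000011061 was expressed at a middle level in every control library and rose in every T3 library. DMSO levels lay between 6.92 and 7.84 with a median of 7.41, and T3 levels between 9.92 and 10.3 with a median of 10.1. The T3 libraries were closely grouped and all lay above the controls, with a gap of 2.08 between the groups. Its mean went from 7.41 ± 0.28 (SD, n = 10) to 10.1 ± 0.13, a rise of 2.70 (SE 0.096, limma adjusted p = 3.8e-15). Its rank went from 8635 to 1203.

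ENSAOCG00000003252 showed the reverse of the first gene. DMSO levels were 11.2 to 12.7 with a median of 12.1, and T3 levels 3.86 to 4.81 with a median of 4.38. All T3 libraries were near the bottom of the scale, although none was listed at 0, and the groups were separated by 6.38. Its mean went from 12.1 ± 0.45 (SD, n = 10) to 4.29 ± 0.34 and so changed by -7.78 (SE 0.17, limma adjusted p = 2.2e-19). It ranked 307 in DMSO and 20198 with T3.

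ENSAOCG00000004382 fell from a high to a middle level. DMSO levels ran from 10.1 through a median of 10.5 to 11.4, and T3 levels from 6.29 through 6.57 to 6.88. The highest T3 library was 3.23 below the lowest control. Its mean went from 10.7 ± 0.42 (SD, n = 10) to 6.62 ± 0.19 and so changed by -4.04 (SE 0.14, limma adjusted p = 2.4e-15). Its rank went from 763 to 12609. All 4 genes kept their direction and their call in each of the 14 alternative settings and with each library left out in turn. They were chosen for a large statistic and separate groups in these same libraries, so this is no further support.

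**Figure D2:**
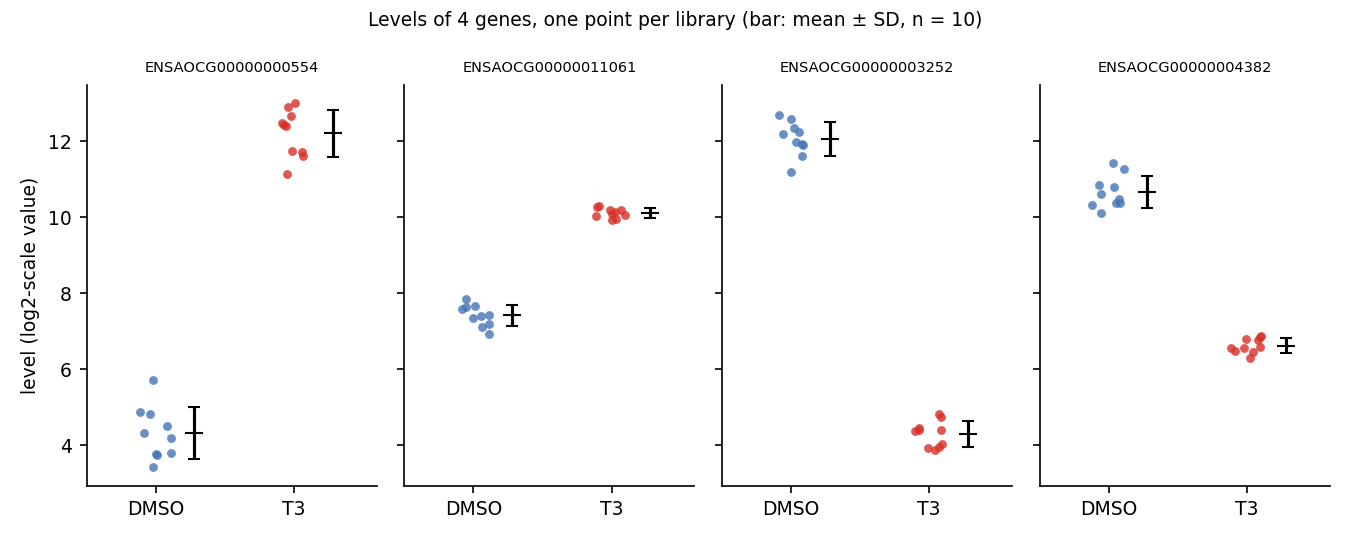
Levels (log2-scale values) of the 4 named genes in each DMSO library (blue) and T3 library (red), with the mean ± SD of 10 libraries beside them. In each panel the groups are separate, by 5.42, 2.08, 6.38 and 3.23 from left to right, and the T3 points are closer together than the DMSO points.

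Strongly risen and strongly fallen genes started from different levels. The 198 genes that rose by at least 2 had a median level of 6.17 in DMSO and 9.01 with T3. In controls 57 of them were below a level of 5 and 12 were at 10 or above, and with T3 the numbers were 0 and 59. The 93 genes that fell by at least 2 had a median of 9.30 in DMSO and 6.33 with T3. In controls 0 of them were below 5 and 39 were at 10 or above, and with T3 the numbers were 24 and 10. A large fall needs a high start on this scale, and a large rise a start well below its upper end, so these starting levels are partly fixed by the size that chose the genes. The median tested gene stood at 6.87 in DMSO and 6.93 with T3.

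The 27 genes with rises of at least 4 were for the most part scarcely expressed in controls: 15 of them had a DMSO mean below 5, and 13 had a T3 mean of 10 or above. The 14 genes with falls of at least 4 included 9 with a DMSO mean of 10 or above and 6 with a T3 mean below 5. All 27 and all 14 of these genes had T3 libraries entirely outside the range of the controls, which follows in part from the choice of large differences.

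Separation of the libraries was common among the larger changes and rare among the small ones. The libraries did not overlap for 1601 genes higher with T3 (7.16% of those tested) and 1121 lower (5.01%). Among genes that rose by at least 2, 180 of 198 were separated, and among those that fell as far, 76 of 93. Among called genes that rose by less than 0.5 it was 134 of 2206, and among those that fell by less than 0.5 it was 175 of 3095. A larger difference leaves less room for overlap, so this order follows in large part from the sizes that formed the classes.

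Genes listed at 0 in many libraries of one group and in none of the other were rare. A gene listed at 0 in at least 5 DMSO libraries and in no T3 library was found 22 times (0.0984% of those tested). The reverse pattern, at least 5 T3 libraries listed at 0 and no DMSO library, was found 32 times (0.143%). Most of these genes stayed near the bottom of the scale: the first group had a median of 3.18 in DMSO and 4.23 with T3, and 4 of its genes changed by at least 2. The second group had a median of 3.93 in DMSO and 3.18 with T3, and 6 of its genes changed by at least 2. No tested gene was listed at 0 in all DMSO or in all T3 libraries. The filter passes such a gene only if every library of the other treatment is above the lowest value.

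Calls were found at all expression levels. When genes were placed in 10 classes of equal size by their mean over the 20 libraries, 27.6% of the lowest class and 62.5% of the highest were called. The share called was 41.2% in class 2, 53.4% in class 7 and 54.6% in class 9. The median SE went from 0.157 in the lowest class to 0.0956 in class 9 and was 0.103 in the highest. Small differences are therefore called more readily in the upper classes than in the lowest. The highest class also had the largest median size of a called difference, at 0.554. Rises outnumbered falls in classes 5 to 9, by 688 to 532 in class 9. Falls outnumbered rises in classes 1 to 4 and in the highest, where 760 genes fell and 637 rose. The excess of rises in classes 5 to 9 turned with the scaling: in class 9, 575 genes rose and 648 fell with library medians set equal, and 582 rose and 646 fell after quantile normalisation. Falls outnumbered rises in the highest class under both, at 852 to 569 and 766 to 647, and without DMSO libraries 4 and 7, at 895 to 674.

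Changes of at least 1 were most frequent in the highest class, at 11.6% of its genes, of which 150 rose and 109 fell. Class 4 came next at 8.45%, with 141 risen and 48 fallen. In the lowest class, where values are compressed, 36 rose and 19 fell by as much. At this size rises outnumbered falls in all 10 classes, also with library medians set equal, after quantile normalisation and without DMSO libraries 4 and 7.

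**Figure D3:**
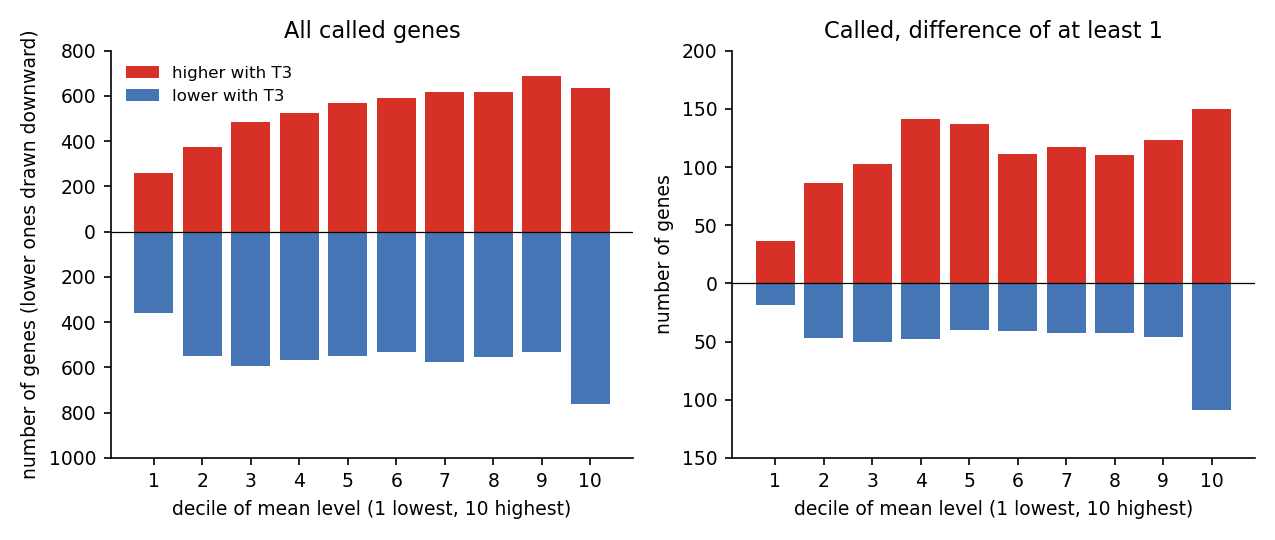
Number of genes called higher (red, upward) and lower (blue, downward) with T3 in 10 classes of mean level, for all called genes (left) and for those with a difference of at least 1 (right). The highest class has the most falls in both panels, 760 and 109, while rises of at least 1 exceed falls in each class.

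The most abundant transcripts fell more often than they rose. Of the 200 genes with the highest mean over the 20 libraries, 120 fell, 35 rose and 45 were not called, beside 24.9% lower and 24% higher over all tested genes. Their median difference was -0.48, against -0.016 over all tested genes. Of the 100 most abundant genes, 56 fell and 15 rose, and of the 500 most abundant, 258 fell and 117 rose. With library medians set equal 125 of the 200 fell and 33 rose, after quantile normalisation 95 fell and 47 rose, and without DMSO libraries 4 and 7 136 fell and 37 rose.

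These falls were mostly modest. Of the same 200 genes, 20 fell by at least 1 and 17 rose as far, with differences from -2.77 to 3.72. The 100 most abundant genes of the DMSO mean and of the T3 mean shared 77 members. The 23 genes that left this top group had a median rank of 128 with T3 and went as far as 429, and the 23 that entered it had a median rank of 166 in DMSO and came from as far as 643.

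Measured per library, the 100 most abundant genes held a smaller part of the total with T3. Their share of the summed values, after each value was turned back from log2 to a linear scale, was 37.4% ± 2.53 (SD, n = 10) in DMSO and 33.4% ± 1.31 in T3 libraries (permutation test, adjusted p = 0.00154 over 4 tests of values per library). DMSO libraries ran from 31.3% to 40.4% and T3 libraries from 31.5% to 36.2%, so the groups overlapped. The lowest DMSO value belonged to library 7, and the next lowest in that group was 35.7%. Without DMSO libraries 4 and 7 the DMSO mean was 37.9% (permutation test, adjusted p = 0.00018). Gene length is not in the table, so this share follows the authors' scaling and is not a share of molecules.

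The median value of a library was also higher with T3, at 6.89 ± 0.01 (SD, n = 10) against 6.83 ± 0.014 in DMSO (permutation test, adjusted p = 8e-05). All 10 T3 medians, from 6.87 to 6.90, lay above all 10 DMSO medians, from 6.80 to 6.84. The number of genes listed at 0, a stand-in for detection where depth is unknown, was 558 to 701 in DMSO and 618 to 730 in T3 libraries. Its means of 626 and 657 did not pass the test (permutation test, adjusted p = 0.0849). Without DMSO library 1 the difference was 39.6 (permutation test, p = 0.0203, unadjusted). With any other single library left out it did not pass (permutation tests, unadjusted p from 0.0582 to 0.167). The part of library depth in the other results was not tested.

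T3 libraries were more alike than control libraries in the genes that differed most. The 198 genes with rises of at least 2 had a mean level between 9.02 and 9.30 in the T3 libraries and between 5.42 and 7.01 in the DMSO libraries. The 93 genes with falls of at least 2 had a mean level between 6.42 and 6.76 with T3 and between 8.89 and 9.92 in DMSO. The distance between the groups was set by the choice of these genes. The call also uses the spread within the groups, pooled over both, so a small spread helps a gene to be chosen. The SD over libraries of the mean level of the risen genes was 0.471 in DMSO and 0.0951 with T3, and that of the fallen genes 0.346 and 0.105. The DMSO values include libraries 4 and 7, and these SDs were not computed without them. A larger SD in DMSO was also found in 72.1% of all tested genes, as given further on.

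DMSO libraries 8, 10 and 2 had the highest mean levels of the risen genes, at 7.01, 6.83 and 6.68. The same 3 libraries had the lowest mean levels of the fallen genes, at 9.07, 8.89 and 9.26. DMSO library 7 had the lowest level of the risen genes at 5.42, and DMSO library 4 followed at 5.86 and had the highest level of the fallen genes at 9.92. Every T3 library was beyond all of these in both gene groups.

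Libraries were also compared gene by gene. For each of the 1600 genes with a called difference of at least 1, each library was placed on one or the other side of the midpoint between the group means. In 810 of these genes (50.6%) all 20 libraries lay on the side of their own group, in 410 a single library was past the midpoint, and in 380 more than 1. The genes and the midpoints both come from these same libraries, so this separation is in large part set by the choice. The count was not made over all tested genes. DMSO library 10 was past the midpoint in 233 genes and DMSO library 8 in 197, and the other DMSO libraries in 44 to 131. The order differed from that of the mean levels: DMSO library 7 was past the midpoint in 107 genes, and DMSO library 3 in the fewest. T3 libraries were past it in 19 to 73 genes, with library 2 the highest. Leaving out DMSO libraries 8 and 10, a setting chosen after these values were seen, gave 10656 called genes, with 1218 that rose and 522 that fell by at least 1.

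**Figure D4:**
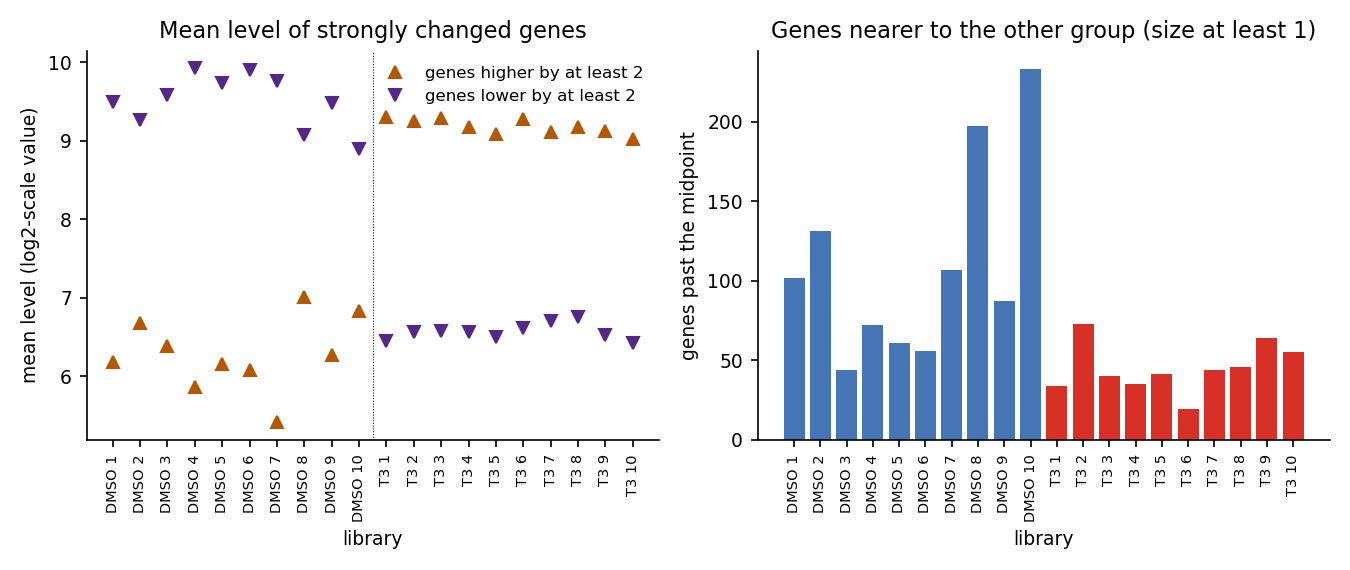
Left, mean level (log2-scale values) of the 198 genes higher by at least 2 (upward triangles) and the 93 genes lower by at least 2 (downward triangles) in each library; right, the number of the 1600 genes of size 1 or more for which a library lay nearer to the other group's mean. T3 libraries stay within 9.02 to 9.30 and 6.42 to 6.76, while DMSO libraries spread more widely and libraries 8 and 10 have the tallest bars, at 197 and 233.

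Spread between libraries was also compared gene by gene. The SD was larger among DMSO than among T3 libraries in 72.1% of the tested genes, with median SDs of 0.286 and 0.215. Without DMSO libraries 4 and 7 it was larger in 56.4% of genes, with a DMSO median of 0.228. Among genes that rose by 1 to 2, 85.3% had the larger SD in DMSO, and 70.1% without these libraries. Among genes that fell by 1 to 2 the shares were 81.7% and 65.1%. Genes not called had shares of 70.7% and 53.9%. In the genes that rose by at least 2 the median SD was 0.648 in DMSO and 0.332 with T3. These genes stood at lower levels in DMSO. The genes that fell by at least 2 stood at higher levels in DMSO, and their median SD was 0.636 in DMSO and 0.415 with T3. Without DMSO libraries 4 and 7 the DMSO median was 0.578 for the risen genes and 0.487 for the fallen ones. The spread of a gene depends on its level, whose part in these differences was not tested.

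The first principal component of the 22360 genes held 49.5% of the variance and separated the treatments, with DMSO libraries at -83.6 to -24.5 and T3 libraries at 39.3 to 50.6. DMSO libraries 10 and 8 were the controls nearest to T3 on it, at -24.5 and -29.8, and DMSO library 7 was the farthest. Component 3 (5.27%) divided the T3 libraries by their number. T3 libraries 1 to 5 lay at 14.3 to 22.9 and T3 libraries 6 to 10 at -22.2 to -13.7. The DMSO values were 7.50 to 12.99 for libraries 1 to 4, against -16.0 to 3.32 for libraries 5 to 10. This cut is not the one used for T3. DMSO library 5 was at -4.20, so at the cut of the T3 libraries the DMSO ranges overlap. No label says what the library number stands for.

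The values of the strongly changed genes were also taken on each side of this division. The 198 genes were chosen with all 10 T3 libraries, and no test of a difference between the sides was made for them. The mean level of the 198 risen genes was 9.08 to 9.30 in T3 libraries 1 to 5 and 9.02 to 9.27 in T3 libraries 6 to 10. Rises of at least 1 numbered 1206 with T3 libraries 1 to 5 alone and 1105 with T3 libraries 6 to 10 alone, and falls of at least 1 numbered 560 and 466. Both counts use the same 10 DMSO libraries.

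**Figure D5:**
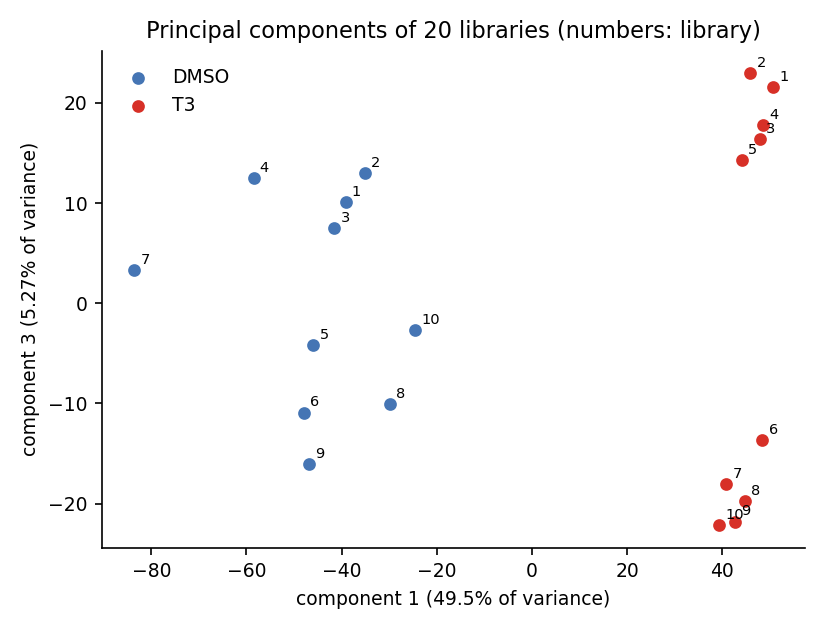
Principal components 1 and 3 (arbitrary units) of the 20 libraries over the 22360 tested genes, with library numbers beside the points. Component 2, which held more of the variance (13.1%) than component 3, is not drawn. Treatment separates along the horizontal axis, and T3 libraries 1 to 5 lie at 14.3 to 22.9 on the vertical axis while T3 libraries 6 to 10 lie at -22.2 to -13.7.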

How the data were processed

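RNA was extracted from entire larvae and made into stranded poly(A) libraries, per the labels' protocols, and read as pairs of 150 bases, per the labels. The submitters' processing notes list kallisto 0.46.1 and FastQC 0.11.8. Build, annotation and the final normalisation tool: not given in the sources used here. Values deposited by the authors are variance-stabilised counts on a log2-like scale for 22816 Ensembl gene IDs. Depth is unknown, so no depth-based interval was computed, and no count test was run. Columns were matched to samples by treatment and number, and 0 were left unmatched. The 10 SR9243 columns served 1 alternative setting and closing values. The 10 T3 and 10 DMSO libraries were fitted alone in R 4.3.3 with limma 3.58.1 (a mean-variance trend in eBayes, two-sided, Benjamini-Hochberg adjustment over 22360 genes, threshold 0.05), checked on simulated data. Single values per library were tested with 100000 two-sided permutations, adjusted over 4 tests. The 456 genes left out were above the lowest value in fewer than 10 libraries. The reference table (28286 genes) holds 0 Ensembl IDs, so the 45 gene lists drawn up by symbol could not be used. The rule for named genes was then the 2 per direction with the largest moderated statistic among non-overlapping genes of size 1 or more. Size and level groups, the midpoint counts and the principal components were chosen afterwards. The comparison, lists and rule were chosen with earlier results of these data known. No 2 libraries were duplicates (highest correlation within a group 0.987). Alternatives changed the filter, scaling, variance model, weights or test, added a replicate block, used all 30 libraries, or left libraries out.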

Additional observations from a re-analysis of the deposited data

Results flagged for a closer look

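Among the 22 groups of 10 values checked, 3 held a library far from the rest, where chance flags about 1 group in 20. DMSO library 7 had a root-mean-square distance of 0.722 to the mean of the other controls, and the next was 0.437. The same library had the lowest share of the 100 most abundant genes among controls, at 31.3% of the summed linear values. T3 library 2 lay 0.362 from the mean of the other T3 libraries, which lay at 0.281 to 0.306. Without T3 library 2, the 100 most abundant genes held 33.1% in T3 libraries (permutation test against DMSO, adjusted p = 0.0012).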

How the results depend on the processing

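In the 14 alternative settings the count of changed genes ran from 8407 to 11926, that of higher genes from 4202 to 5845 and that of lower genes from 4205 to 6659. Rises of at least 1 ran from 983 to 1218 and falls from 441 to 560. All stayed within 1.5 times the reported counts. With each library left out in turn, changed genes numbered 10470 to 11380, higher genes 5163 to 5578, lower genes 5294 to 5802, and rises and falls of at least 1 numbered 1003 to 1165 and 460 to 516. The difference in library median was 0.0545 to 0.0589 and that in genes listed at 0 was 23.1 to 39.6 when 1 library was left out. Leaving out DMSO library 1 took the latter past the unadjusted threshold (39.6, permutation test, p = 0.0203), which no other single library did. The cause was not tested. Higher genes made up 49.1% of calls, 41.1% with library medians set equal and 43.9% after quantile normalisation. With library number as a replicate block, 10695 genes were called. Deviations of same-numbered T3 and DMSO libraries had correlations of -0.095 to 0.164, above 0.1 in 5 of 10 pairs. Of the DMSO libraries 3 of 10, and of the T3 libraries 3 of 10, correlated best with their own number. The numbers were not taken to pair libraries in the main fit. Whether the number has an effect shared by both treatments was not tested. Values at low levels are compressed, which limits the sizes seen there.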

Other observations

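Many of the abundant genes lay in a band of moderate falls with T3. The band was noticed in the plot of differences against level. Its limits were then set to called falls of 0.25 to 0.75, and to levels of 12 to 14 for the gene set below. It is described without a test. Of the 86 tested genes with a mean level from 13 to 14, 46 were called with a fall of 0.25 to 0.75 (53.5%), and of the 138 genes from 12 to 13 it was 62 (44.9%). Between levels 8 and 9 the share was 16.8%, from 9 to 10 16.4%, from 10 to 11 20.2% and from 11 to 12 28.7%. At the highest levels, from 14 to 19, it was 31.8% (21 of 66 genes). The share over all tested genes was not computed. Called falls of any size made up 58 of the 86 genes, 75 of the 138, and 790 of the 3309 from 8 to 9. The median size of all called differences, 0.51, lies within the limits of the band. The band therefore in part restates that abundant genes fell more often. From 13 to 14 the lower quartile of all differences was -0.59 and their median was -0.51.

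The 108 genes of this band between levels 12 and 14 had a median difference of -0.53, which the limits fix in large part. Their mean level was 13.1 ± 0.12 (SD, n = 10) in DMSO, with libraries from 12.9 to 13.3, and 12.6 ± 0.088 in T3, with libraries from 12.4 to 12.7. Their median difference was -0.33 after quantile normalisation and -0.59 with library medians set equal. The genes were chosen for falling in these libraries, so their direction under other settings is no further support.

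These genes also varied together among libraries of the same treatment. Correlations were not used to choose them, but a shared direction and a call that depends on the spread within groups were. The median correlation between pairs of the 108 genes, taken over the 10 libraries of a group as deviations from the group mean, was 0.675 in DMSO and 0.70 in T3 libraries. For the other 116 genes of the same levels it was 0.329 in DMSO and 0.0473 in T3. These 116 genes mix called rises, genes not called and other falls, so they also differ from the band in direction. The part of this choice in the correlations was not tested. All pairs of a group share the same 10 libraries and their scaling, so the correlations are a description of these libraries. The IDs of the band carry no names here, and what the genes encode is not reported.

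In the 10 SR9243 libraries ENSAOCG00000000554 stood at 7.82 ± 0.70 (SD, n = 10) with a range of 6.85 to 9.03, above all DMSO and below all T3 libraries. ENSAOCG00000003252 stood at 11.8 ± 0.44 with a range of 11.3 to 12.4, above all T3 libraries and within the range of the DMSO libraries. ENSAOCG00000011061 stood at 7.96 ± 0.32 (SD, n = 10) with a range of 7.60 to 8.72, below all T3 libraries. Its range overlapped that of the DMSO libraries, but its mean was above the highest of them, at 7.84. ENSAOCG00000004382 stood at 10.2 ± 0.45 with a range of 9.60 to 10.9, above all T3 libraries and overlapping the DMSO libraries.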
